A study of Mus musculus with 6 samples.

Results

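The nuclear genes for the subunits of the 5 oxidative phosphorylation complexes were compared between macrophages given IL-4 and macrophages given IL-4 with CGRP. Members were the rows of the deposited count table whose gene names begin with Nduf and a subunit letter and number (complex I), are Sdha to Sdhd (II), begin with Uqcr or are Cyc1 (III), begin with Cox4 to Cox8 (IV) or begin with Atp5 (V). This rule gave 94 of 57180 genes, of which 43 were assigned to complex I, 4 to complex II, 9 to complex III, 19 to complex IV and 19 to complex V. Another 14 rows with pseudogene names ending in -ps were left out. The rule also takes in Atp5if1, which inhibits ATP synthase and is not a subunit of it, and places Ndufa4 with complex I although textbooks now count its protein with complex IV. It misses Ndufab1 and Cycs, which are described with the companion genes.

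RNA was sequenced from bone marrow-derived macrophages of wild-type (WT) mice aged 6 to 8 weeks. Marrow cells had been grown with M-CSF, the growth factor of the macrophage lineage, at 20 ng/mL for 7 days. They then received, for 24 hours, either IL-4 alone (3 libraries) or IL-4 together with CGRP (3 libraries). IL-4 is the cytokine of alternative macrophage activation and was given to both groups at 20 ng/mL, whereas CGRP is calcitonin gene-related peptide, a neuropeptide of sensory nerves. The comparison asks what CGRP added to IL-4 changed, and no culture without IL-4 was analysed here. Nothing in the labels ties replicates to different cultures or mice. The p-values therefore reflect how far these libraries spread, and that spread may be technical.

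Oxidative phosphorylation takes place in the inner mitochondrial membrane. Complexes I and II feed electrons from NADH and succinate into ubiquinone, complex III passes them to cytochrome c, and complex IV passes them to oxygen. Complexes I, III and IV pump protons, and complex V, the ATP synthase, uses their return to make ATP. The complexes other than complex II are assembled from proteins of both the nuclear and the mitochondrial genome. Macrophages activated with IL-4 are known for relying on mitochondrial respiration, in contrast to the glycolytic metabolism of macrophages activated with bacterial products.

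The libraries held between 20088895 and 24060444 estimated counts. Summed macrophage markers (9 of 9 tested, among them Adgre1, Csf1r and Cd68) lay between 14954 and 15178 CPM (counts scaled to a common library total) in the IL-4 libraries and between 15541 and 15743 CPM in the IL-4+CGRP libraries. Summed muscle markers, which matter for the muscle isoforms of complex IV, were at most 0.125 CPM in any library, and 3 of these 4 genes were at 0 in every library. Neutrophil markers summed to 36.7, 27.4 and 31.9 CPM in IL-4 replicates 1 to 3 and to 29.8, 35.7 and 27.3 CPM in IL-4+CGRP replicates 1 to 3. IL-4 replicate 1 and IL-4+CGRP replicate 2 were the highest sums, as they were for most members. The markers did not share this order. The short genes S100a8 and S100a9 (486 and 519 bases) were highest in IL-4+CGRP replicate 2, at 7.25 and 17.3 CPM. Mpo and Ltf had their lowest values there, at 4.22 and 5.42 CPM. Of the macrophage markers, 3 (Itgam, Cd14 and Mrc1) were called higher. Of the lists for other cells, endothelial markers summed to 105 to 122 CPM with IL-4 and 144 to 164 CPM with IL-4+CGRP, with 2 of 3 called higher, and dendritic cell markers to 4.10 to 5.92 and 2.81 to 3.54 CPM, with 1 of 4 called lower. Their part in the results was not tested. In such bulk samples, fewer cells of a type and less RNA per cell cannot be told apart.

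Of the 94 members, 82 passed the filter on low counts: 39 of complex I, all 4 of complex II, all 9 of complex III, 12 of complex IV and 18 of complex V. The 12 others were Ndufa11b, Ndufb11b, Ndufs6b, Ndufa4l2, Cox4i2, Cox6b2, Cox6c2, Cox7a1, Cox7b2, Cox8b, Cox8c and a second row named Atp5po. Of these, 8 had 0 counts in every library. The highest count among the 12 was 9, for Cox7a1 in IL-4 replicate 1.

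Together the members took 0.558%, 0.485% and 0.483% of all counts in IL-4 replicates 1, 2 and 3. They took 0.430%, 0.540% and 0.418% in IL-4+CGRP replicates 1, 2 and 3. The group means were 0.508% ± 0.0426 with IL-4 and 0.462% ± 0.0672 with IL-4+CGRP (SD, n = 3). IL-4+CGRP replicates 1 and 3 lay below every IL-4 library, and IL-4+CGRP replicate 2 lay between IL-4 replicate 1 and IL-4 replicate 2, so the groups overlapped. Complex IV showed the same overlap, with a share of 0.103%, 0.0803% and 0.0819% with IL-4 and 0.0670%, 0.0989% and 0.0658% with IL-4+CGRP. Complex V held the largest share among the 5 complexes in each library, from 0.158% to 0.201%.

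**Figure D1:**
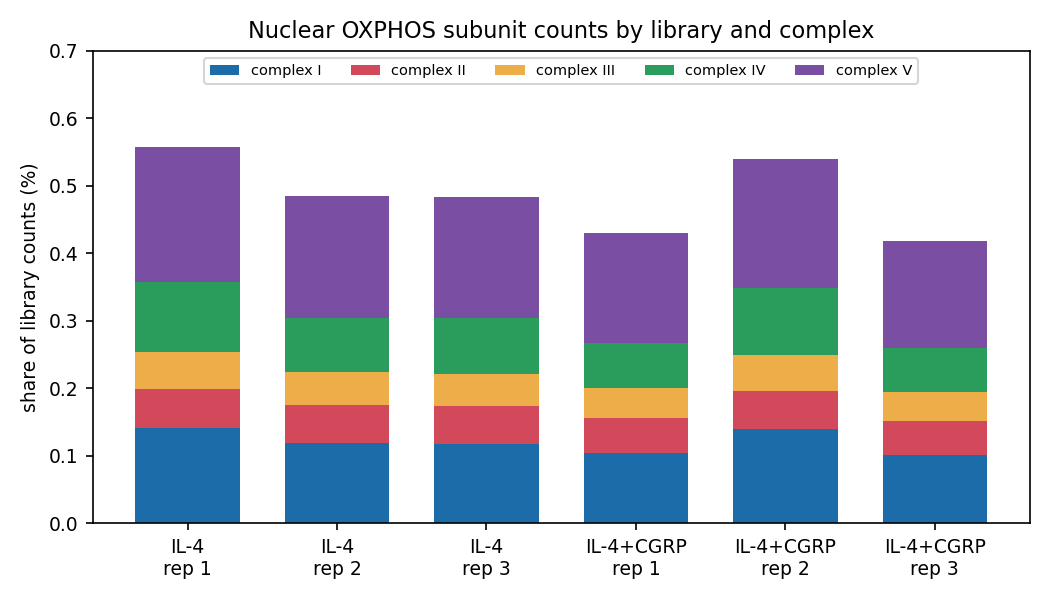
Share of each library's counts (y axis, percent) taken by the nuclear subunit genes, stacked by complex, for the 3 IL-4 and 3 IL-4+CGRP libraries. IL-4 replicate 1 (0.558%) and IL-4+CGRP replicate 2 (0.540%) are the highest bars, and IL-4+CGRP replicates 1 (0.430%) and 3 (0.418%) the lowest.

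No member passed the test between the groups. With edgeR's quasi-likelihood test on all 6 libraries and an adjusted p threshold of 0.05, 0 of 82 were called higher and 0 called lower. Over all 13260 tested genes 2.32% were called higher and 1.54% lower. At an unadjusted p under 0.05 edgeR gave 7 members (8.54%), against 15.8% of all tested genes. DESeq2 and limma-voom each called 0 members and gave 13 at that level (15.9%), against 11.3% and 16.1% of all tested genes. The fitted values nevertheless leaned to one side: 78 of 82 members (95.1%) had a log2 fold change (IL-4+CGRP minus IL-4) below 0, against 50.8% of all tested genes. The median was -0.20 over the members and -0.0042 over all tested genes. By complex it was -0.18 for complex I (36 of 39 below 0), -0.11 for complex II (4 of 4), -0.12 for complex III (9 of 9), -0.22 for complex IV (12 of 12) and -0.22 for complex V (17 of 18). Individual values ran from -0.48 for Ndufa5 to 0.52 for Atp5mc2.

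Few members had groups that do not overlap. All 3 IL-4+CGRP libraries lay below all 3 IL-4 libraries for 4 members (Ndufa10, Sdha, Atp5f1a and Atp5f1b) and above them for 0, against 9.92% and 11.1% of all tested genes.

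For these genes the libraries of one group lay further apart than the groups. Each member's log2 CPM was set against its own mean over the 6 libraries. The median of these deviations was 0.36, 0.01 and 0.00087 in IL-4 replicates 1, 2 and 3, and -0.29, 0.25 and -0.31 in IL-4+CGRP replicates 1, 2 and 3. Over all tested genes these medians were close to 0 in each library, the furthest being 0.0064, which the scaling of the libraries largely sets in advance. Other genes of like length are compared below. IL-4 replicate 1 was the highest library for 55 members and IL-4+CGRP replicate 2 for 21. IL-4+CGRP replicate 3 was the lowest for 49 and IL-4+CGRP replicate 1 for 29. IL-4 replicate 1 and IL-4+CGRP replicate 2 were the 2 highest libraries for 68 of 82 members (82.9%), against 14.5% of all tested genes. IL-4+CGRP replicates 1 and 3 were the 2 lowest for 71 (86.6%), against 17.7%.

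**Figure D2:**
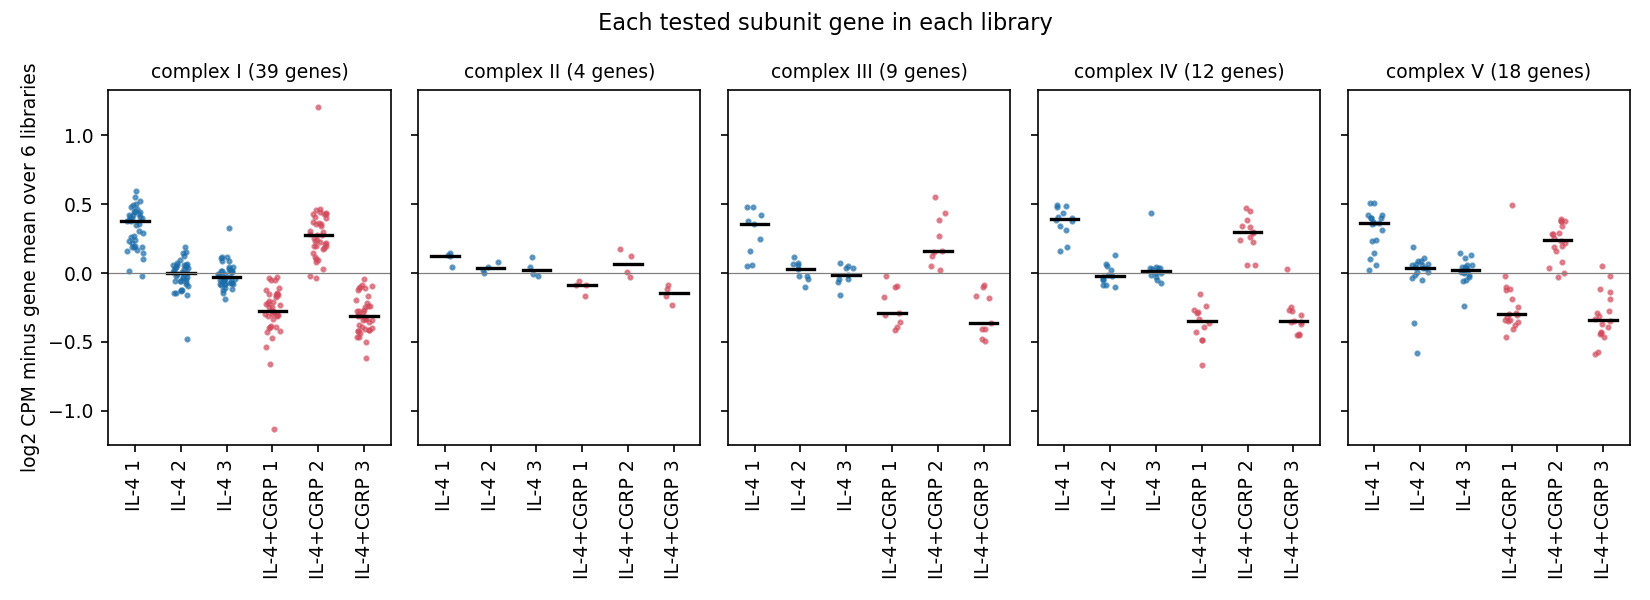
Deviation of each tested subunit gene from its own mean over the 6 libraries (y axis, log2 CPM), one panel per complex and one column of points per library, with bars at the medians. IL-4 replicate 1 and IL-4+CGRP replicate 2 lie above 0 and IL-4+CGRP replicates 1 and 3 below 0 in the 5 panels, with the smallest distances in complex II.

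IL-4+CGRP replicate 2 therefore stood apart from the other libraries of its group for these genes. IL-4+CGRP replicates 1 and 3 were both below every IL-4 library for 72 of the 82 members, a pattern found in 23.7% of all tested genes: 33 in complex I, 4 in complex II, 8 in complex III, 11 in complex IV and 16 in complex V. They were both above every IL-4 library for 0 members, against 3048 of the 13260 tested genes. IL-4+CGRP replicate 2 itself was above every IL-4 library for 22 members, within their range for 56 and below them for 4. Among all 13260 tested genes these 3 positions held 3718, 5674 and 3868.

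Each library was left out in turn. Without IL-4+CGRP replicate 2, edgeR called 35 of 82 members lower and 0 higher, with 7.04% of 13492 tested genes called lower and 6.78% higher. The called members were 16 of complex I, 4 of complex II, 3 of complex III, 2 of complex IV and 10 of complex V. The median over the members was then -0.42, with -0.39, -0.20, -0.48, -0.46 and -0.48 for complexes I to V. Leaving out any of the other 5 libraries left 0 members called. The fit without IL-4+CGRP replicate 2 is given gene by gene below because the members were seen to be high in that library. For a gene highest there within its group, leaving it out lowers the group's values and narrows their spread. Adjusted p-values from that fit therefore describe dependence on 1 library and are not separate support for a difference. In a further fit, chosen after seeing the data, both IL-4+CGRP replicate 2 and IL-4 replicate 1 were left out, which leaves 2 libraries a group. It called 59 members lower (24, 4, 6, 11 and 14 in complexes I to V) and 0 higher, with 8.88% of all tested genes called lower and 7.97% higher, and its median over the members was -0.29. Of the calls, 34 were shared, which is 97.1% of the 35 and 57.6% of the 59, and Ndufv1 alone was called in the first fit and not in the second.

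**Figure D3:**
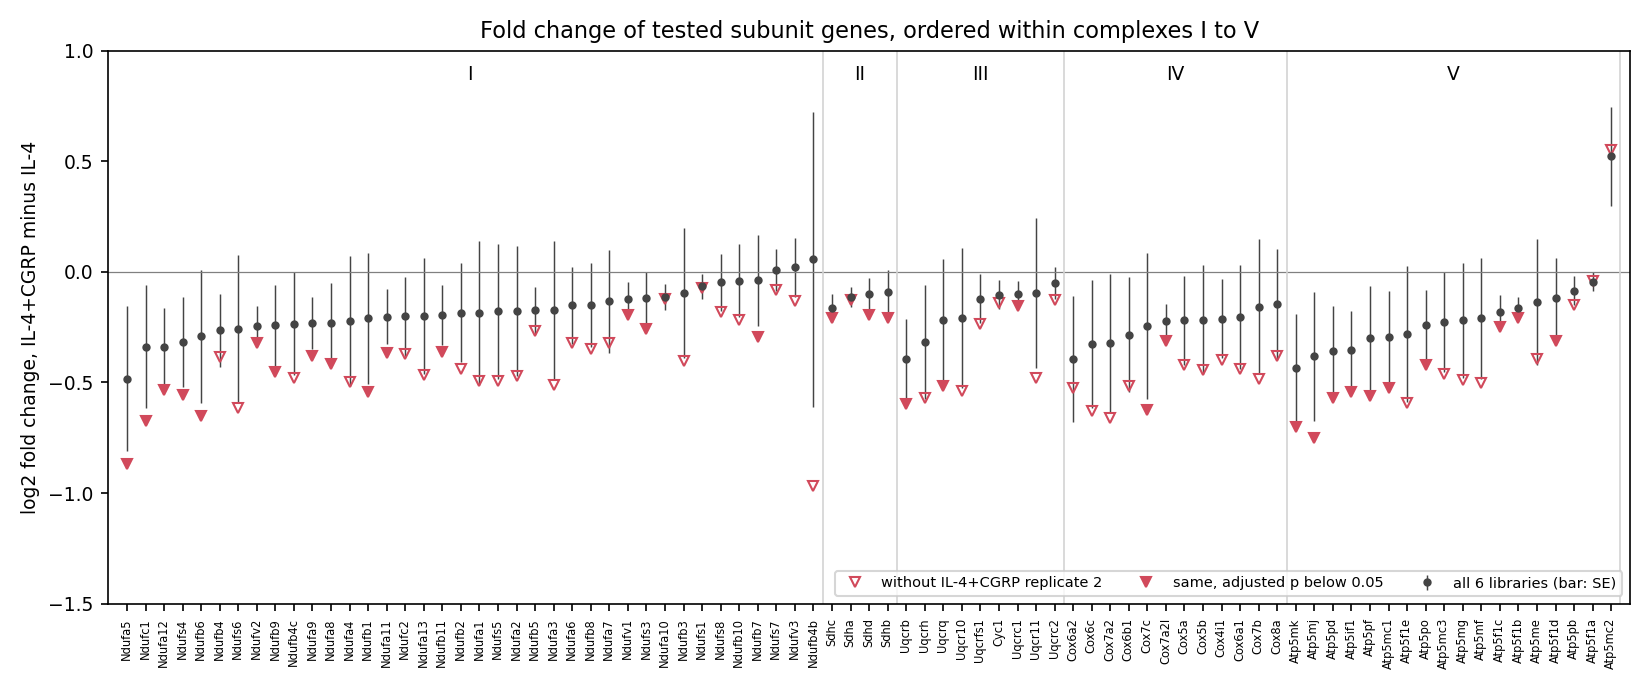
Log2 fold change of tested subunit genes (y axis, IL-4+CGRP minus IL-4), ordered within complexes I to V. Dark points with bars give the value and SE from all 6 libraries, where 0 genes passed the test, and red triangles the value without IL-4+CGRP replicate 2, filled for genes that then passed as lower.

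The libraries also differed by gene length, which touches these genes because most are short. The tested members had a median length of 728 bases in the deposited table, against 2757 bases over all tested genes. By complex the median was 732, 2066, 547, 652 and 733 bases for complexes I to V. Among tested genes that are not members and are at most 600 bases long, the median deviation was 0.26 in IL-4 replicate 1, -0.16 in IL-4+CGRP replicate 1, 0.28 in IL-4+CGRP replicate 2 and -0.19 in IL-4+CGRP replicate 3. The 29 members of that length had 0.43, -0.35, 0.35 and -0.39 in the same libraries. Short genes as a class thus deviated in the same libraries and directions as the members. For RNA quality the labels give only a lower limit, an RNA quality number of 6.5, the same for each library. Values by library were not given in the sources used here, and the part of RNA quality was not tested.

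Members lay lower than other genes of like length, as a description of these libraries. The median log2 fold change was -0.21 in members and -0.07 in other genes up to 600 bases, -0.23 and -0.10 over 600 and up to 1000 bases (25 members), and -0.12 and -0.04 over 1000 and up to 2000 bases (22 members). Without IL-4+CGRP replicate 2 the share called lower in these 3 length classes was 27.6%, 44.0% and 59.1% of members and 11.7%, 18.0% and 12.4% of other genes. That fit was singled out because the members were high in the left-out library, so these shares are not separate support for a difference. Across the 82 members, which are not independent and share the same libraries, log2 length and deviation correlated at r = -0.69 in IL-4 replicate 1, -0.60 in IL-4+CGRP replicate 2, 0.44 in IL-4+CGRP replicate 1 and 0.55 in IL-4+CGRP replicate 3.

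When each library's length trend was removed from the counts before testing, edgeR called 3 members lower, namely Uqcrb (adjusted p = 0.0199), Atp5pd (0.0279) and Atp5f1b (0.0289), and 0 higher. Over all tested genes this fit called 2.9% lower and 3.57% higher. The members' median was -0.09, with 71 of 82 (86.6%) below 0 against 49.6% of all tested genes. What part of the difference between the groups goes with length and what part with the genes' function was not tested.

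**Figure D4:**
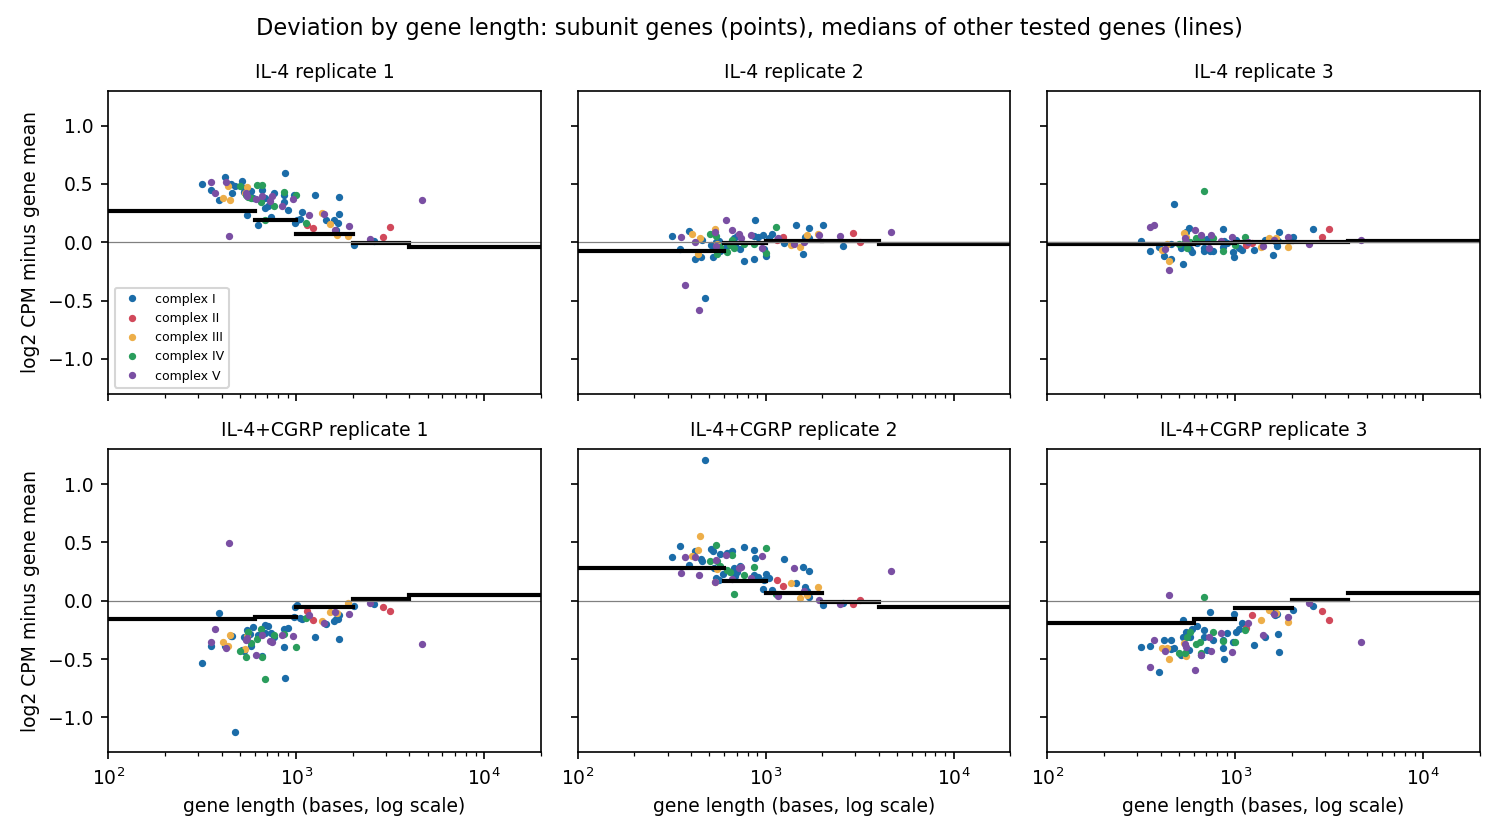
Deviation of each subunit gene from its mean (y axis, log2 CPM) against gene length in bases (log scale), one panel per library, coloured by complex; black lines are medians of other tested genes in 5 length classes. Short genes lie above 0 in IL-4 replicate 1 and IL-4+CGRP replicate 2 and below 0 in IL-4+CGRP replicates 1 and 3, for the lines as for most points.

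Complex I oxidises NADH and is the largest complex. Its catalytic core holds the flavin and the iron-sulphur clusters, and its many accessory subunits surround that core. Per length, levels ran from 3.14 CPM per kilobase (RPKM, mean of 6 libraries) for Ndufb4b to 81.0 for Ndufb8, with a median of 34.6. The 7 core subunits tested (among them Ndufv1 and Ndufv2, of the electron input module) had a median log2 fold change of -0.10, and the 32 other members -0.20. Without IL-4+CGRP replicate 2 these were -0.19 and -0.45, with 4 and 12 called lower, where that fit called 7.04% of all tested genes lower. The core genes were longer, with a median of 1623 bases against 670, and with the length trend removed the medians were -0.06 and -0.07. This grouping by role was made after the values were seen.

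Ndufa5, an accessory subunit of the matrix arm, had the lowest fold change of the 82. It stood at 15.4, 11.6 and 10.3 CPM in IL-4 replicates 1 to 3 and at 6.40, 13.1 and 7.16 CPM in IL-4+CGRP replicates 1 to 3. IL-4+CGRP replicates 1 and 3 were the lowest of the 6, while replicate 2 lay within the IL-4 range, so the groups overlapped. The log2 fold change was -0.48 ± 0.33 (SE; edgeR adjusted p = 0.563), and -0.87 ± 0.16 (adjusted p = 0.00384) without IL-4+CGRP replicate 2. Ndufc1, a short accessory subunit of the membrane arm with 315 bases, had the next lowest value of complex I at -0.34 ± 0.28 (edgeR adjusted p = 0.628). Its CPM values were 13.1, 9.62 and 9.30 with IL-4 and 6.35, 12.0 and 6.98 with IL-4+CGRP, again with replicate 2 inside the IL-4 range.

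Ndufv2, a core iron-sulphur subunit of the electron input module, showed a smaller spread. It stood at 39.9, 36.8 and 34.1 CPM with IL-4 and at 31.1, 34.6 and 27.8 CPM with IL-4+CGRP. The groups overlapped only through IL-4+CGRP replicate 2, and the log2 fold change was -0.24 ± 0.09 (edgeR adjusted p = 0.195). Ndufa10, an accessory subunit with 2020 bases, was lower in all 3 IL-4+CGRP libraries, at 61.9, 62.5 and 60.5 CPM against 63.0, 71.0 and 66.1 CPM, by -0.11 ± 0.06 (edgeR adjusted p = 0.382). The matrix arm subunit Ndufa9 stood at 66.4, 64.5 and 59.1 CPM with IL-4 and 50.5, 64.5 and 46.7 CPM with IL-4+CGRP. Its edgeR adjusted p was 0.393 with all libraries and 0.000595 without IL-4+CGRP replicate 2.

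The highest fold changes of complex I belonged to Ndufb4b and Ndufv3. Ndufv3, an accessory subunit next to the flavoprotein, had values of 29.4, 24.1 and 23.9 CPM with IL-4 and 22.9, 31.5 and 24.2 CPM with IL-4+CGRP, and its log2 fold change of 0.02 ± 0.13 became -0.13 without IL-4+CGRP replicate 2. Ndufb4b, a low-level gene named after the membrane arm gene Ndufb4, was at 0.536 to 3.08 CPM, and its value of 0.06 ± 0.67 became -0.97. Ndufb4 and Ndufb4c are near-identical genes whose reads the authors' counting could split between them, so their separate levels are uncertain. Ndufa4 and Ndufb8 had the highest levels per length in complex I. Ndufa4 had 82.1 ± 19.8 RPKM with IL-4 and 70.3 ± 21.6 RPKM with IL-4+CGRP (SD, n = 3), a difference smaller than either SD.

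Complex II oxidises succinate to fumarate and is the complex whose subunits are all nuclear. Its 4 genes had the smallest median SE of the 5 complexes, 0.069 on the log2 scale, with a range of 0.045 to 0.099 against 0.076 to 0.33 in complex IV. Sdha, the flavoprotein that binds succinate, stood at 289, 295 and 289 CPM with IL-4 and at 269, 274 and 263 CPM with IL-4+CGRP. All 3 IL-4+CGRP libraries were lower, IL-4+CGRP replicate 2 included, by a log2 fold change of -0.11 ± 0.04 (edgeR adjusted p = 0.238), 1.08-fold. Without IL-4+CGRP replicate 2 Sdha passed as lower (-0.13 ± 0.04, edgeR adjusted p = 0.0483).

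The membrane anchors Sdhc and Sdhd carry the quinone site together with the iron-sulphur subunit Sdhb. Sdhc stood at 100.1, 91.3 and 99.0 CPM with IL-4 and 86.1, 92.0 and 81.4 CPM with IL-4+CGRP, a log2 fold change of -0.16 ± 0.06 (edgeR adjusted p = 0.217). IL-4+CGRP replicate 2 lay just above the lowest IL-4 library. Sdhd had -0.10 ± 0.08 and Sdhb -0.09 ± 0.10, and for both genes IL-4+CGRP replicate 2 was above every IL-4 library. Without that library Sdhb, Sdhc and Sdhd passed as lower (edgeR adjusted p = 0.0331, 0.0198 and 0.0241), by 1.16-fold, 1.16-fold and 1.15-fold.

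Complex III passes electrons from ubiquinol to cytochrome c. Its core and redox proteins are Uqcrc1, Uqcrc2, cytochrome c1 (Cyc1) and the Rieske iron-sulphur protein (Uqcrfs1), and 5 small subunits surround them. The median log2 fold change was -0.10 for the first set and -0.22 for the small subunits. Without IL-4+CGRP replicate 2 these were -0.15 and -0.54, with 1 and 2 called lower, against 7.04% of all tested genes in that fit. The small subunit genes had a median length of 445 bases. With the length trend removed both medians were -0.06.

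Uqcrb, a small subunit, stood at 44.4, 36.0 and 35.0 CPM with IL-4 and at 24.9, 37.1 and 25.8 CPM with IL-4+CGRP. IL-4+CGRP replicates 1 and 3 were well below the IL-4 libraries and replicate 2 was between them. Its log2 fold change was -0.39 ± 0.18 (edgeR adjusted p = 0.374), and -0.60 ± 0.10 (adjusted p = 0.00152) without IL-4+CGRP replicate 2. Uqcrh, the hinge protein that docks cytochrome c, had 52.3, 37.1 and 38.8 CPM with IL-4 and 30.4, 45.4 and 27.0 CPM with IL-4+CGRP, a log2 fold change of -0.32 ± 0.26. Leaving out IL-4+CGRP replicate 2 gave Uqcrh -0.57 ± 0.19, which did not pass (edgeR adjusted p = 0.158). The short gene Uqcr11 reached 27.8 CPM in IL-4+CGRP replicate 2, the highest of its 6 values, and its log2 fold change of -0.10 ± 0.34 took either sign among the alternatives. Uqcrc2, a core protein, had -0.05 ± 0.07. Uqcrq and Uqcrc1 had the highest levels per length, 90.6 and 87.4 RPKM, and both passed as lower without IL-4+CGRP replicate 2 (edgeR adjusted p = 0.0399 and 0.0382).

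Complex IV, cytochrome c oxidase, has a catalytic core made in mitochondria, and its nuclear subunits tune and stabilise it. Several of these exist as tissue isoforms, and the pattern here was that of the ubiquitous set. Cox4i1, the ubiquitous form of subunit 4, had the highest level, 215 RPKM, while its partner Cox4i2, known from lung, had 1 count in 1 of 6 libraries. For Cox4i2 3 counts, the limit that a count of 0 allows, correspond to 0.125 to 0.149 CPM in a library, counting error only. Cox6a1 had 154 RPKM against 2.06 for the heart and muscle form Cox6a2, a ratio of 74.5. Reads assigned to Cox6a2 are uncertain because Itgad overlaps it on the opposite strand. Itgad's own counts, over its whole length, were 399.8% of those of Cox6a2.

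The other isoform pairs had the same order. Cox7a2 had 50.2 RPKM against 0.565 for the muscle form Cox7a1, a ratio of 88.8. Cox6b1 had 114 RPKM, against at most 5 counts in a library for the testis form Cox6b2. Ndufa4 had 76.2 RPKM, and its relative Ndufa4l2 also had at most 5 counts. Cox7b (40.9 RPKM) and Cox8a (153 RPKM) were measured in every library, and Cox7b2, Cox8b and Cox8c had 0 counts in all of them. The order within each pair was the same in all 6 libraries.

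**Figure D5:**
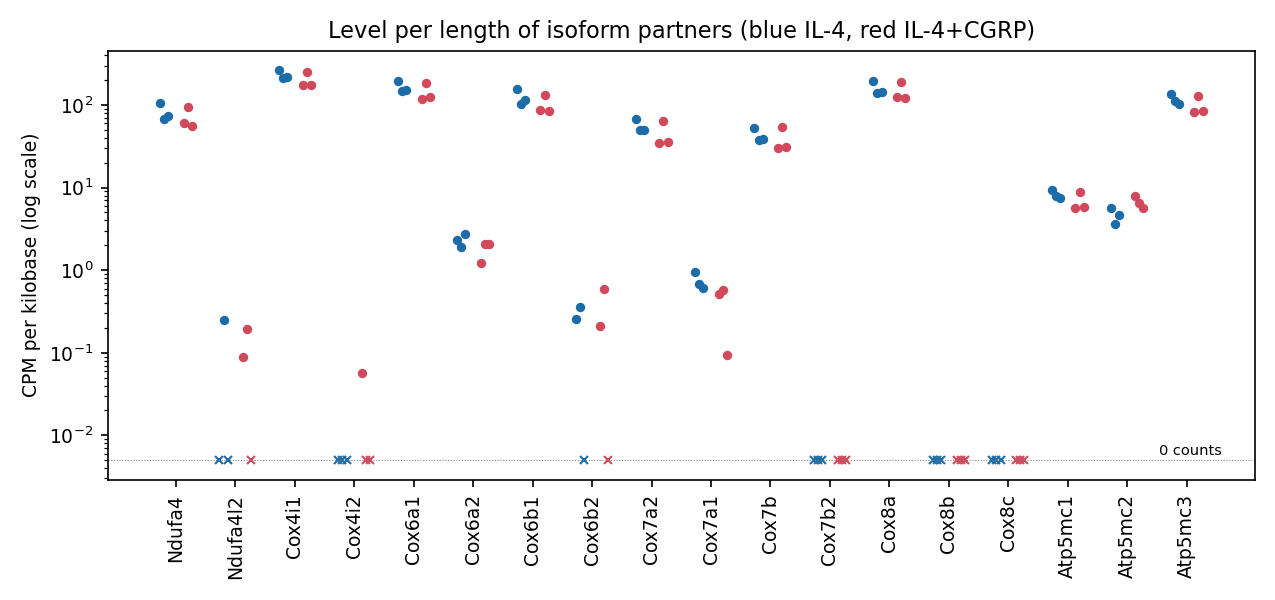
Level per length (y axis, CPM per kilobase, log scale) of isoform partners in complexes IV and V and of Ndufa4 with Ndufa4l2, in each IL-4 (blue) and IL-4+CGRP (red) library. Crosses mark libraries with 0 counts; Cox4i1, Cox6a1, Cox6b1, Cox7a2, Cox7b and Cox8a lie above their partners in each of the 6 libraries.

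For the ubiquitous complex IV genes the groups overlapped in every case. Cox4i1 stood at 202, 161 and 167 CPM with IL-4 and at 133, 190.0 and 135 CPM with IL-4+CGRP, with a log2 fold change of -0.21 ± 0.18 (edgeR adjusted p = 0.647). IL-4+CGRP replicate 2 exceeded IL-4 replicates 2 and 3, and the 2 other IL-4+CGRP libraries lay below all IL-4 libraries. Cox6c, with 61.1, 46.0 and 43.5 CPM with IL-4 and 32.6, 55.5 and 32.1 CPM with IL-4+CGRP, had -0.32 ± 0.29, and Cox6a2 had -0.39 ± 0.29. Cox7b (-0.16 ± 0.31) and Cox8a (-0.14 ± 0.25) had the highest fold changes of complex IV, both still below 0. Cox7a2l, a supercomplex factor that links complexes III and IV, had the smallest SE, 0.076. It stood at 109.9, 108 and 101 CPM with IL-4 and at 88.6, 102 and 82.8 CPM with IL-4+CGRP, a log2 fold change of -0.22 (edgeR adjusted p = 0.162). Only Cox7a2l and Cox7c passed as lower without IL-4+CGRP replicate 2, whereas 11 of the 12, all but Cox6a2, passed when IL-4 replicate 1 was left out as well.

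Complex V consists of a catalytic head with a central stalk, a peripheral stalk, and a membrane part with the rotating ring of c subunits. The median log2 fold change was -0.17 for the 5 head and central stalk genes, -0.27 for the 4 peripheral stalk genes, -0.23 for the 3 c ring genes and -0.22 for the 5 other membrane genes. Without IL-4+CGRP replicate 2 these were -0.25, -0.49, -0.46 and -0.50, with 3, 3, 1 and 2 called lower, against 7.04% of all tested genes in that fit. The inhibitor Atp5if1 passed as lower in that fit as well (edgeR adjusted p = 0.00944) and stood at 43.7, 34.7 and 33.4 CPM with IL-4 and 25.7, 36.4 and 25.2 CPM with IL-4+CGRP.

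The catalytic subunit Atp5f1b had the highest level per length of all members, 282 ± 10.3 RPKM with IL-4 and 252 ± 13.3 RPKM with IL-4+CGRP (SD, n = 3). Its values were 563, 533 and 526 CPM with IL-4 and 472, 511 and 463 CPM with IL-4+CGRP. All 3 IL-4+CGRP libraries were lower, and the log2 fold change was -0.17 ± 0.05 (edgeR adjusted p = 0.115), 1.12-fold. Atp5f1b passed as lower without IL-4+CGRP replicate 2 (edgeR adjusted p = 0.00243) and with the length trend removed. Atp5f1a, its partner in the head, had closer values, at 470.0, 480.5 and 457.5 CPM against 455.6, 453.8 and 456.5 CPM. Its log2 fold change was -0.04 ± 0.04 (edgeR adjusted p = 0.67), and it passed in neither of the fits without a library.

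Among the membrane genes, Atp5mk and Atp5mj, small proteins of the synthase dimer, had the lowest fold changes. Atp5mj stood at 23.1, 20.4 and 19.3 CPM with IL-4 and at 12.9, 23.5 and 11.8 CPM with IL-4+CGRP. IL-4+CGRP replicate 2 held the highest value and the other IL-4+CGRP libraries the 2 lowest. The log2 fold change was -0.38 ± 0.29 (edgeR adjusted p = 0.611), against -0.75 ± 0.10 without IL-4+CGRP replicate 2 (edgeR adjusted p = 9.26e-05), 1.68-fold lower. Atp5mk had 26.7, 19.3 and 20.5 CPM with IL-4 and 14.6, 22.0 and 12.6 CPM with IL-4+CGRP, a log2 fold change of -0.43 ± 0.24 (edgeR adjusted p = 0.478). Taf5 overlaps Atp5mk on the opposite strand, and its own counts, over its whole length, were 33.7% of those of Atp5mk.

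The c subunit is made from 3 genes that encode the same mature protein. Atp5mc3 had the highest level, 107 RPKM, against 7.47 for Atp5mc1, whose listed length of 4660 bases lowers its value per length, and 5.67 for Atp5mc2. Atp5mc2 was the one gene of complex V with a fold change above 0, at 2.53, 1.596 and 2.04 CPM with IL-4 and 3.47, 2.85 and 2.52 CPM with IL-4+CGRP. The groups overlapped slightly, and its log2 fold change of 0.52 ± 0.22 did not pass (edgeR adjusted p = 0.28). Atp5mc1 and Atp5mc3 had -0.29 ± 0.21 and -0.23 ± 0.23.

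Genes that work with these subunits were described from lists made with the results known. Of the 13 mitochondrially encoded subunits, 12 were tested, with 1 called lower and 1 higher by edgeR. DESeq2 called 2 lower and 1 higher, and limma-voom 0 lower and 1 higher. At an unadjusted p under 0.05 edgeR gave 7 of the 12, DESeq2 7 and limma-voom 8. The shares of all tested genes were 15.8%, 11.3% and 16.1%. mt-Co1, the catalytic subunit of complex IV, was lower with IL-4+CGRP, at 2219.9 ± 18.8 against 2507 ± 140.0 CPM (SD, n = 3), and passed with an edgeR adjusted p of 0.047, a call kept in 5 of 16 alternatives (adjusted p = 0.0014 to 0.244). mt-Co2 was called higher, but it was listed at 0 in all 3 IL-4 libraries and at 179.7, 186 and 181 counts with IL-4+CGRP. mt-Co3 was listed at 615 and 644 counts in replicate 3 of both groups and at no more than 1.68 elsewhere, and mt-Atp6 and mt-Nd3 were also uneven. Every cell with mitochondria uses these genes, so their listed values do not give reliable levels. As a share of counts the mitochondrial subunits took 0.381%, 0.332% and 0.349% with IL-4 and 0.317%, 0.319% and 0.318% with IL-4+CGRP. Most of that share was mt-Co1. Gene by gene, IL-4+CGRP replicate 2 lay below the IL-4 range for 6 of the 12 tested, within it for 5 and above it for 1. Among all 13260 tested genes that library lay below the IL-4 range for 3868, within it for 5674 and above it for 3718.

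Assembly factors, the proteins that build the complexes, gave 0 calls in either direction with edgeR: 0 of 18 for complex I, 0 of 13 for complexes II and III, 0 of 25 for complex IV and 0 of 5 for complex V. At an unadjusted p under 0.05 edgeR gave 2, 0, 3 and 0 of them, DESeq2 2, 0, 2 and 0, and limma-voom 2, 0, 4 and 0, where the shares of all tested genes were 15.8%, 11.3% and 16.1%, and neither DESeq2 nor limma-voom called any. Their median log2 fold changes were -0.09, -0.10, -0.10 and -0.11. The smallest p-values belonged to Ndufaf4 (-0.31 ± 0.11) and Tmem126a (-0.43 ± 0.16) for complex I, Uqcc1 (-0.12 ± 0.07) and Uqcc5 (-0.31 ± 0.24) for complex III, Coa6 (-0.43 ± 0.13) and Coa8 (-0.26 ± 0.09) for complex IV, and Fmc1 (-0.61 ± 0.28) and Tmem242 (-0.16 ± 0.11) for complex V. Of the subunits with other names, Ndufab1 had 0.07 ± 0.10 and cytochrome c (Cycs) -0.18 ± 0.20.

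The regulators of mitochondrial biogenesis lay on both sides of 0. Of 13 tested, edgeR, DESeq2 and limma-voom each called 0 and gave 0 at an unadjusted p under 0.05, 6 lay below 0, and the median was 0.01. Nrf1, a transcription factor of many nuclear respiratory genes, had 0.13 ± 0.07, and Tfam, which transcribes and packs mitochondrial DNA, had -0.13 ± 0.09. In a list of 12 other mitochondrial genes (the uncoupling protein family gene Ucp2, carriers, pores, import proteins and the matrix enzyme citrate synthase, Cs), all 12 were below 0 with a median of -0.17. At an unadjusted p under 0.05 edgeR gave 6 of the 12, DESeq2 7 and limma-voom 7, against 15.8%, 11.3% and 16.1% of all tested genes. Of the 12, 1 passed: Ucp2, an inner membrane carrier abundant in macrophages. It was lower with IL-4+CGRP, at 595 ± 14.9 against 691 ± 26.1 CPM (SD, n = 3), with an edgeR adjusted p of 0.019. The Ucp2 call held in 11 of 16 alternatives and ended with the replicate block (adjusted p = 0.0799) and when IL-4 replicate 2 (0.129), IL-4 replicate 3 (0.116), IL-4+CGRP replicate 1 (0.135) or IL-4+CGRP replicate 3 (0.0864) was left out. With IL-4+CGRP replicate 2 left out, 9 of these 12 passed as lower, and so did 3 of the 12 mitochondrial subunits. Of the assembly factors, in the order above, 1 of 18, 0 of 13, 4 of 25 and 2 of 5 passed as lower. Of the 13 regulators 0 did. That fit called 7.04% of all tested genes lower, and a larger share of the shorter genes, given above by length class.

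The members' start regions were read for motifs of factors known to act on respiratory genes. RefSeq windows of build GRCm38.p6, from 250 bases before to 50 after the start, matched 67 of the 82 tested members. Each motif was searched on both strands. The 10-base motif of nuclear respiratory factor 1, whose letters are the 3 capital runs of that length in Sdha, was in 17 windows (25.4%), against 4.78% of all 27025 windows and 10.97% of the 9291 windows of tested genes. AAGATGGCG (YY1) was in 6 windows (8.96%, against 1.495% and 3.38%), of which 5 belonged to complex I. TCAAGGTCA (ERRA) was in 2 windows (2.99%, against 0.407% and 0.258%). TGACGTCA, the cyclic AMP response element through which CGRP signalling is known to act on genes, was in 4 (5.97%, against 1.88% and 3.33%). CCGGAAG (ETS) was in 16 (23.9%, against 9.12% and 19.3%). GGGCGG (SP1) was in 27 windows (40.3%, against 35.9% and 64.6%), and CCAAT also in 27 (40.3%, against 37.9% and 39.0%). ETS and SP1 letters can overlap other motifs, a match is not shown to be a bound site, and no match says only that these letters are not in the window.

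The 250 bases before the start are shown for the member with the lowest fold change in each complex that had exactly 1 window, 5′ to 3′ on the gene's strand, with motif letters in capitals. Sdha (chr13:74350241-74350490) holds 3 matches to the nuclear respiratory factor 1 motif and a CCAAT box in reverse. Uqcrh (chr4:116075071-116075320) holds an ETS match in reverse and a CCAAT box. Cox7a2 (chr9:79759854-79760103) holds SP1 letters, Atp5mk (chr19:47090648-47090897) holds SP1 letters and a CCAAT box, and Ndufc1 (chr3:51408956-51409205) holds none of the 7 motifs. All 5 lie on the minus strand of GRCm38.p6.
Sdha: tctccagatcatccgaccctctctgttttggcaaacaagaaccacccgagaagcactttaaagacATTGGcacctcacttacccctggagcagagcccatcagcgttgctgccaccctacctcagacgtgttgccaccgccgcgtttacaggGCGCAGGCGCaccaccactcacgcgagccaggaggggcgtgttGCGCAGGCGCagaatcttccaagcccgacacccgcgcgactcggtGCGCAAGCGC
Uqcrh: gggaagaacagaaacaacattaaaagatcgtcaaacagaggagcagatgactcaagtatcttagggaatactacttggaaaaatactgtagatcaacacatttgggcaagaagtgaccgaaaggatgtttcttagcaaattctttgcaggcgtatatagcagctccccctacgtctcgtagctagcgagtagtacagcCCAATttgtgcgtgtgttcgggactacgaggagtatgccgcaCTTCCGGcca
Cox7a2: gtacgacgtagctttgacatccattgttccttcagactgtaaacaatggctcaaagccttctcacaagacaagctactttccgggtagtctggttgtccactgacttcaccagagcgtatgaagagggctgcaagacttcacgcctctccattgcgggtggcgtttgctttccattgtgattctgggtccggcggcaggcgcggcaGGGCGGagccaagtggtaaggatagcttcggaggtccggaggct
Atp5mk: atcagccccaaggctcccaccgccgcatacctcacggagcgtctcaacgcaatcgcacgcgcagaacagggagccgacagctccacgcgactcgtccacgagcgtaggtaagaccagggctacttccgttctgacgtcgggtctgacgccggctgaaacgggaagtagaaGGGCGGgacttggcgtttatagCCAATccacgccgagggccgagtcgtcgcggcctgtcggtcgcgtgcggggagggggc
Ndufc1: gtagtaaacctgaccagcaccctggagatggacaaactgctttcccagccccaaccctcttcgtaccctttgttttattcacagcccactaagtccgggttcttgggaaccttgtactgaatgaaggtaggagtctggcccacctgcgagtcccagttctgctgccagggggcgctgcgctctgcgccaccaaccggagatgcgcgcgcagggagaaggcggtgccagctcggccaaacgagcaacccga

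Ndufc1, Uqcrh, Cox7a2 and Atp5mk, with 0, 2, 1 and 2 matches, each had IL-4 replicate 1 and IL-4+CGRP replicate 2 as their 2 highest libraries and IL-4+CGRP replicates 1 and 3 as their 2 lowest. Sdha, with 4 matches, was highest in IL-4 replicate 2. These genes also differ in length: Sdha has 2900 bases, and Ndufc1, Uqcrh, Cox7a2 and Atp5mk have 315, 547, 659 and 352. Whether the order of the libraries goes with motifs or with length was not tested, and fold changes were not compared by motif.

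Other genes can share reads with members. Of 79 members with a transcript in GENCODE M21, 20 had a near-identical copy elsewhere (at least 95% identity over 200 bases). For 1, Ndufb4, the copies' own counts exceeded 10% of the member's counts. For 17 of 81 members, an overlapping gene on the opposite strand had own counts above 10% of the member's. Among them were Ndufb2 (Braf), Atp5pf (Gabpa) and Cox6c (Vps13b). These are counts over the whole of the other gene, and the reads within the overlap were not measured. Use of strand in counting is not stated in the labels or files, and reads from the bases shared by such pairs cannot be told apart.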

How the data were processed

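RNA was sequenced in 3 IL-4 and 3 IL-4+CGRP libraries. The authors deposited estimated counts per gene with gene lengths in bases, made with fastp, HISAT2 and StringTie on build GRCm39 per the submitters' processing notes. Their versions, the annotation and the counting step were not given in the sources used here. Non-whole values (over 1e-06 from a whole number), present in 31 member rows, were rounded, and 525 of 57180 genes have no name. Gene length is another deposited column, and 0 unassigned columns of per-sample values were present.

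Genes were filtered with filterByExpr (13260 kept, 99.9% of counts), scaled with TMM (0.985 to 1.016) and tested with edgeR 4.0.16 (glmQLFit robust, glmQLFTest, two-sided) under R 4.3.3. The p-values were adjusted by Benjamini-Hochberg across those genes, with 0.05 as threshold. The common dispersion corresponded to a biological coefficient of variation of 8.62%. CPM uses TMM-scaled totals, RPKM is CPM per kilobase of the deposited length, and each SE is the size of the log2 fold change over the square root of F. Scripts were tested on simulated data.

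Alternatives were DESeq2 size factors, library totals alone, no count filter, a stricter filter (mean count 50 or more), the DESeq2 1.42.0 Wald test, limma-voom (limma 3.58.1, prior count 2 for log2 CPM), the replicate number as a block, removal of each library's trend of log2 CPM with length, and leaving out each library. The fit without 2 libraries was added after seeing the data, and the fit without IL-4+CGRP replicate 2 was singled out after seeing them. Named genes are members that pass the test, the 2 highest and 2 lowest fold changes and the 2 highest levels per length in each complex, tissue isoforms and their partners, and called or smallest-p companion genes. Members and lists were chosen with earlier results of these data known. Ndufv2, Ndufa9, Ndufa10, Ndufb4, Atp5pd, Atp5if1 and Cox7c were chosen after their values were seen. Copies were searched with BLAST+ 2.17.0 in GENCODE M21. That reference is of another build, so no coordinates of genes are printed other than RefSeq promoter windows of GRCm38.p6. An item counted among the members is not reported here by name and is left out of the plot of fold changes.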

Additional observations from a re-analysis of the deposited data

How the results depend on the processing

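Members called lower, 0 with all libraries, numbered 5 with no count filter (Atp5f1b, Cox7a2l, Ndufa12, Ndufa9 and Ndufv2), 3 with the length trend removed, 59 without both IL-4+CGRP replicate 2 and IL-4 replicate 1, and 0 to 35 with each library left out, the 35 without IL-4+CGRP replicate 2. None of the 16 alternatives run called a member higher. Over all tested genes, 307 higher and 204 lower calls became 584 and 434 with no count filter, 474 and 385 with the length trend removed and 1066 and 1187 without both libraries. With each library left out they ranged from 140 to 915 higher and 80 to 950 lower, the highest without IL-4+CGRP replicate 2. The causes of these shifts were not tested.

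The members' median log2 fold change stayed below 0 with each library left out, from -0.42 to -0.08. By complex the ranges were -0.39 to -0.05 (I), -0.20 to -0.087 (II), -0.48 to -0.050 (III), -0.46 to -0.10 (IV) and -0.48 to -0.11 (V), with the lowest value without IL-4+CGRP replicate 2 in each case.

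The labels do not say whether replicate numbers pair the samples. Deviations of same-numbered libraries from their group means correlated at -0.188, -0.182 and 0.130. The value was 0.287 for IL-4 replicate 1 with IL-4+CGRP replicate 2, the libraries where short genes were high. Such correlations cannot show whether cultures or mice were paired. With the replicate number as a block, edgeR called 176 genes higher and 86 lower and 0 members, and 0 members with the block and the length trend removed together.

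Of 845 values of the 53 named genes under alternatives, 743 kept their direction and side of the threshold, 67 newly passed, 16 no longer passed (all of them mt-Co1 or Ucp2) and 19 changed sign. With single libraries left out, Ndufv3 ranged from -0.13 to 0.12, Ndufb4b from -0.97 to 0.47, Uqcr11 from -0.48 to 0.10, Uqcrc2 from -0.13 to 0.018, Cox7b from -0.49 to 0.0105, Cox8a from -0.38 to 0.025 and Ndufab1 from -0.028 to 0.16. Ndufv3 and Ndufb4b became -0.03 and -0.78 without both libraries, and Ndufb4b -0.28 with limma-voom and -0.16 with the block. Uqcr11 became 0.044 with the length trend removed and 0.027 with the block as well.

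With 3 libraries a group, the SEs of the members' log2 fold changes ran from 0.042 to 0.67 (Ndufb4b), with medians of 0.069 (complex II) to 0.25 (complex IV). Tissue isoforms with at most 9 counts in a library cannot be compared between the groups at this depth.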
